A study of Mus musculus with 32 samples.

Results

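*Fkbp11* and 9 further genes of protein folding in the endoplasmic reticulum (ER) were followed through mouse lung tumors that kept, lost or regained the tumor suppressor *Lkb1* (gene symbol *Stk11*). The 10 genes, of 53558 in the files, were *Fkbp11*, *Xbp1*, *Atf4*, *Atf6*, *Hspa5*, *Hsp90b1*, *Dnajb9*, *Sdf2l1*, *Creld2* and *Herpud1*. *Fkbp11* was chosen by its lower level in *Lkb1*-deficient than in *Lkb1* wild-type tumors, whereas the other 9 were taken for their part in the unfolded protein response. The level that chose *Fkbp11* is therefore described here without a test. *Fkbp11* was tested only for differences that the choice did not rest on. The test of tamoxifen against vehicle lay within *Lkb1*-deficient libraries that the choice used.

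Libraries were made from the sorted neoplastic cells of *Rosa26* LSL-tdTomato mice, named *KT*, in which Lenti-Cre given into the trachea starts tumors and marks their cells. The sort excluded CD45, CD31, F4/80 and Ter119 positive cells. The 4 *KT* libraries had wild-type *Lkb1* and *Trp53* and no treatment. All other mice were also *Lkb1* XTR/XTR, a gene trap derived from 1 embryonic stem cell clone that Cre turns on at tumor initiation and that FLPo-ERT2 removes when tamoxifen is given. The non-restored group held 10 libraries, 6 from mice with FLPo-ERT2 given corn oil vehicle and 4 from mice without it given tamoxifen. The restored group held 7 libraries from mice with FLPo-ERT2 that received tamoxifen, in 4 mg doses in 200 µL of corn oil. Tumors of these 3 groups were *Trp53* wild-type and 24 to 27 weeks old, and treatment of the trap mice lasted 2 weeks. *Trp53*-deficient tumors, from *Trp53* flox/flox mice with the same trap, were taken at 16 to 19 weeks and gave 7 non-restored libraries from 4 animals and 4 restored libraries. Their non-restored animals were 2 with FLPo-ERT2 given vehicle (5 libraries) and 2, animals 3 and 4, without it given tamoxifen, whereas the restored libraries had FLPo-ERT2 and tamoxifen, again for 2 weeks. All restored libraries came from females, while 2 of 4 *KT*, 3 of 10 non-restored and 3 of 7 *Trp53*-deficient non-restored libraries came from males. *KT* mice received a lower dose of Lenti-Cre than the *Trp53* wild-type trap mice, and the study states no dose for the *Trp53* flox/flox mice. For the *Trp53* wild-type trap mice the study counts fewer animals than there are libraries: 3 mice in each non-restored arm and 4 restored mice. Either some of these libraries share a mouse or the study did not count them all. The labels do not say, so n counts libraries and their spread may be partly technical. Where libraries share a mouse, p-values that treat them as separate mice are too small.

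Proteins that enter the ER are folded by chaperones, by disulfide isomerases and by prolyl isomerases such as FKBP11. When unfolded proteins build up, the sensors IRE1, PERK and ATF6 start the unfolded protein response: IRE1 splices the *Xbp1* transcript, PERK favours translation of *Atf4*, and ATF6 is cut to release a transcription factor. These factors raise chaperones such as *Hspa5* (BiP) and the degradation machinery that *Herpud1* belongs to. Alveolar type II (ATII) cells, which these tumors resemble, secrete large amounts of surfactant protein and depend on this machinery. Splicing, translation and cleavage leave no trace in gene-level counts, so the values below are transcript levels alone.

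XBP1 and ATF6 act through the ER stress response element (ERSE: CCAAT, 9 bases of any kind, then CCACG) and through ERSE-II (ATTGG, 1 base, then CCACG). Both were searched on both strands from 250 bases before to 50 after each RefSeq transcription start (GRCm38.p6), and 9 of the 10 genes had a promoter in that set. ERSE stood in 39 of 32851 promoters (0.119%) and ERSE-II in 12 (0.0365%). Among the 10 genes, ERSE was found once in *Hspa5*, once in *Creld2* and 2 times in *Hsp90b1*, and ERSE-II was found in *Herpud1*. Of 107 ER and unfolded protein response genes with a promoter, from the wider lists below, 9 held ERSE and 2 held ERSE-II. They include *Pdia6*, which rose with restoration by 0.38 on the log2 scale and was the only gene with ERSE that passed. *Hspa5* (-0.06), *Hsp90b1* (0.08) and *Creld2* (-0.25), also with ERSE, did not pass. Of the 2 genes with ERSE-II, *Herpud1* rose by 0.73 and passed, and *Dnajb11* had -0.08 and did not. Whether the elements go with the response was not tested. The matches in the 10 genes are shown here 5′ to 3′ on the gene's strand. Capitals mark the ends of the element, which read CGTGG and ATTGG where it lies on the other strand.
Hspa5 (chr2:34772005-34772063, plus strand): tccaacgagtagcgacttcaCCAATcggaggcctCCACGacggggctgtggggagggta
Hsp90b1, upstream element (chr10:86705618-86705676, minus strand): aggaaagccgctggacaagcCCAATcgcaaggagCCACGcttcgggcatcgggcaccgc
Hsp90b1, downstream element (chr10:86705513-86705571, minus strand): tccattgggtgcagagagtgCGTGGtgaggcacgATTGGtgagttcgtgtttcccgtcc
Creld2 (chr15:88819500-88819558, plus strand): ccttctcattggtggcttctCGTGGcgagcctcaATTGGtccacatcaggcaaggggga
Herpud1 (chr8:94386357-94386407, plus strand): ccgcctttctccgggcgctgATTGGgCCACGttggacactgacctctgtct

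*Fkbp11* has 2 RefSeq starts, and neither promoter held ERSE or ERSE-II. The inner promoter held the shorter CCACG 2 times, on the other strand, and ACGT, the core that XBP1 and ATF6 family sites share, 2 times. Those letters are common: CCACG stood in 32.8% and ACGT in 30.9% of all promoters. The 60 bases before and 10 after each start are shown to set *Fkbp11* beside the 4 genes above, with CCACG (as CGTGG) and ACGT in capitals.
Fkbp11, inner start (chr15:98727618-98727687, minus strand): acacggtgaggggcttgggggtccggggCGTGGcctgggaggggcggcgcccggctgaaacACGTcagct
Fkbp11, outer start (chr15:98728189-98728258, minus strand): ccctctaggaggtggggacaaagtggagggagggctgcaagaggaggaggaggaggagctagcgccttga
A match is a description of letters and does not show that a factor binds there.

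Library totals ran from 1302482 to 2649449 expected counts in *KT*, from 1485923 to 5080811 in non-restored, from 1658277 to 5943951 in restored, from 1875593 to 5536484 in *Trp53*-deficient non-restored and from 2145572 to 5032156 in *Trp53*-deficient restored tumors. Levels between groups are given as CPM, read counts relative to the library total after scaling by TMM, and the 7 *Trp53*-deficient non-restored libraries were summed to 4 animals, which left 29 units. *Stk11* matched the labels, at 16.7 to 27.5 CPM in *KT*, 0 to 1.08 in non-restored, 11.7 to 22.5 in restored, 0 to 0.513 in *Trp53*-deficient non-restored and 8.42 to 14.9 in *Trp53*-deficient restored tumors. *Trp53* was at 11.7 to 39.7 CPM in *Trp53* wild-type and 1.37 to 4.88 in *Trp53*-deficient units. ATII markers were present throughout, but their summed level over 8 genes was 5902 CPM in non-restored replicate 8 and 8212 CPM in *Trp53*-deficient non-restored animal 4, against 24405 to 107741 CPM in the other 27 units. The mucin *Muc5b* reached 6465 and 12896 CPM in these 2 units. All 5 airway markers, *Muc5b* included, summed to at most 6470 and 12906 CPM in their groups, so the other airway markers added little. *Fkbp11* is abundant in plasma cells. The 9 plasma and B cell markers summed to 6.41 to 29.1 CPM over all units, mostly from *Cd79b*. Their median sum was 18.6 CPM in *KT*, 14.2 in non-restored and 14.5 in restored tumors. *Mzb1*, *Tnfrsf17* and *Ms4a1* had medians of 0 in every group, while *Igkc* had medians of 0.854, 0.44 and 0.173 CPM in these 3 groups. The part of such cells in the *Fkbp11* level was not tested.

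On the length-normalized TPM scale, the chaperones led the 10 genes. Mean TPM over the 29 units was 800 ± 169 (SD) for *Hsp90b1* (GRP94) and 474 ± 143 for *Hspa5*. *Dnajb9* (142 ± 33.7), *Herpud1* (142 ± 49.2), *Atf4* (111 ± 28.2) and *Xbp1* (104 ± 18.3) followed at levels within each other's spread. *Atf6* (30.8 ± 8.85), *Fkbp11* (29.7 ± 18.4), *Creld2* (20.8 ± 6.89) and *Sdf2l1* (17.6 ± 11.4) were lowest, again within each other's spread. The place of *Fkbp11* in this order changed with the group: in *KT* its 45.3 to 87.7 TPM lay above every value of *Atf6* (23.9 to 30.9), *Creld2* (13.5 to 27.1) and *Sdf2l1* (7.26 to 14.1), while in non-restored tumors its mean of 15.5 ± 4.9 TPM (SD, n = 10) stood beside the 15.7 ± 11.8 of *Sdf2l1* as the lowest pair. The 562 TPM of *Hsp90b1* in its lowest unit exceeded the 261 TPM of the highest *Herpud1* unit.

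*Fkbp11* encodes a membrane-anchored prolyl isomerase of the ER and lies on chr15:98724366-98728198 (GRCm38, minus strand), where it overlaps no annotated gene. It was at 26.8, 41.6, 22.5 and 26.4 CPM in *KT* replicates 1 to 4. In the 10 non-restored libraries it lay between 3.87 and 10.4 CPM with a median of 5.8, and in the 7 restored libraries between 6.13 and 18.3 CPM with a median of 13.3. Every *KT* library was above every non-restored and every restored library, and restored overlapped non-restored through restored replicate 3 alone, whose next neighbour stood at 12.2 CPM. Group means were 29.3 ± 8.42 (SD, n = 4) in *KT*, 6.41 ± 2.04 (n = 10) in non-restored and 13.1 ± 3.64 (n = 7) in restored tumors. The *KT* mean was 4.58 times the non-restored and 2.23 times the restored mean, and the restored mean was 2.05 times the non-restored one. On the log2 scale the fitted difference was -2.16 (SE 0.24) for non-restored minus *KT* and 1.01 (SE 0.21) for restored minus non-restored, so that the second made up 46.5% of the first in the opposite direction. The difference from *KT* was among the values that chose *Fkbp11* and the other shares its non-restored libraries, so nothing is read from the 5.86% of 12636 genes that passed the test between non-restored and *KT* tumors. *Fkbp11* had 39 to 55 counts in *KT*, 6 to 37 in non-restored and 16 to 84 in restored libraries, so counting error adds to the spread of the low values. In bulk samples, fewer cells that express a gene and less RNA per cell cannot be told apart.

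**Figure D1:**
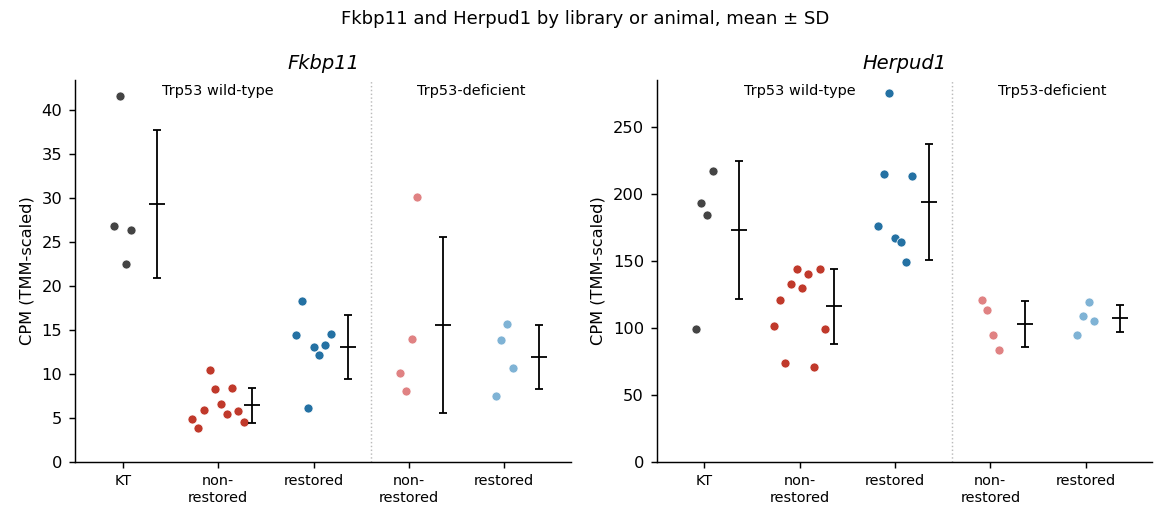
TMM-scaled CPM of *Fkbp11* (left) and *Herpud1* (right) in each library or animal of the 5 groups, with the mean and SD beside the points and the dotted line between *Trp53* wild-type and *Trp53*-deficient tumors. *Fkbp11* was at 22.5 to 41.6 CPM in *KT* and at 3.87 to 10.4 CPM in non-restored tumors, and all *Herpud1* values of restored *Trp53* wild-type tumors (149 to 275 CPM) lay above all non-restored values (70.9 to 144 CPM).

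The *Fkbp11* level of the non-restored group is given here by arm and by sex. Every *KT* library lay above every non-restored one, so any such split shows the low level again and is not support. It averaged 5.88 ± 1.9 CPM (SD, n = 4) with tamoxifen and no FLPo-ERT2, and 6.76 ± 2.23 CPM (n = 6) with vehicle and FLPo-ERT2. The choice of *Fkbp11* used these libraries but did not rest on the difference between the arms. That difference was -0.17 on the log2 scale with an adjusted p of 1, and 0.00791% of genes passed that test. Females had 4.85 to 10.4 CPM in the non-restored group (n = 7) against 22.5 and 41.6 CPM in *KT*. Males had 3.87 to 5.76 CPM (n = 3) against 26.8 and 26.4 CPM in *KT*.

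*Trp53*-deficient tumors showed another pattern of *Fkbp11*. The 4 non-restored animals had 10.1, 8.09, 14 and 30.1 CPM, and the 4 restored libraries had 7.44, 13.9, 15.7 and 10.7 CPM. Non-restored animals 1 and 2, with vehicle and FLPo-ERT2, lay below animals 3 and 4, with tamoxifen and no FLPo-ERT2. This difference between arms was not tested. The 3 libraries of animal 1 had 9.65, 9.7 and 12.1 CPM, a spread smaller than that between animals. The groups overlapped almost fully, and the highest value came from animal 4, the unit with low ATII markers. Restored minus non-restored was -0.33 on the log2 scale (SE 0.42, 95% interval -1.16 to 0.49, adjusted p = 0.89), and 0.14 without that animal. In this comparison 0.00% of 12516 genes passed, *Stk11* included (log2 difference 5.15, adjusted p = 0.059), while 748 (5.98%) had an unadjusted p under 0.05 and DESeq2 called 22 of the same genes. The restoration effect on *Fkbp11* was lower by 1.38 on the log2 scale (SE 0.44) in *Trp53*-deficient than in wild-type tumors, and by 0.88 without animal 4, a difference described without a test because it uses the non-restored libraries.

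The *Trp53* backgrounds were also compared within each *Lkb1* state. Among non-restored tumors its mean was 15.6 ± 10 CPM (SD, n = 4) with *Trp53* deleted against 6.41 CPM with *Trp53* intact, a log2 difference of 1.24 (SE 0.29) that was 0.74 without animal 4. Among restored tumors it was 11.9 ± 3.64 CPM (n = 4) against 13.1 CPM, a tested log2 difference of -0.14 (SE 0.32, 95% interval -0.76 to 0.49, adjusted p = 0.86). Tumor age differed with the *Trp53* genotype, and the 2 cannot be told apart. Ordered by mean, the groups ran *KT*, *Trp53*-deficient non-restored, restored, *Trp53*-deficient restored and non-restored, and each group overlapped its neighbour in that order. The second place rested on animal 4. Without it the *Trp53*-deficient non-restored mean was 10.7 ± 3.02 CPM (SD, n = 3), below both restored means, and the range of 8.09 to 14 CPM no longer reached that of *KT*.

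*Herpud1*, an ER membrane protein that helps to deliver misfolded proteins to the degradation machinery, was the only 1 of the 10 genes that passed a test. Its levels in *KT* were 99.1, 193, 184 and 217 CPM. It lay between 70.9 and 144 CPM (median 126) in non-restored and between 149 and 275 CPM (median 176) in restored libraries. All 7 restored libraries were above all 10 non-restored ones, and *KT* replicate 1 fell among the non-restored values. *Herpud1* rose with restoration by 0.73 on the log2 scale (SE 0.17, edgeR adjusted p = 0.026), where 1.87% of all genes passed. Adjusted p was 0.058, 0.073 and 0.06 without restored replicate 2, 3 or 7, 0.23 against the 4 tamoxifen-treated non-restored libraries alone and 0.065 with limma on TPM. ATII markers moved with this comparison, from a summed 5902 to 71801 CPM (median 52502) in non-restored to 41418 to 107741 CPM (median 84484) in restored libraries, and their part in it was not tested. Non-restored minus *KT* was -0.58 (SE 0.20, adjusted p = 0.099), and -0.76 (adjusted p = 0.046) without *KT* replicate 1. *Herpud1* shares 535 bases with the antisense gene *Gm15890*, and whether the counting used strand is not stated.

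In *Trp53*-deficient tumors *Herpud1* was low in both *Lkb1* states. It was at 121, 113, 94.9 and 83.1 CPM in the non-restored animals and at 94.3, 109, 119 and 105 CPM in the restored libraries. These ranges coincide, with a log2 difference of 0.07 (SE 0.15, 95% interval -0.23 to 0.37, adjusted p = 0.94). All 4 *Trp53*-deficient restored libraries were below all 7 restored *Trp53* wild-type libraries, with summed ATII markers at 35830 to 54458 and 41418 to 107741 CPM. That difference was -0.85 (SE 0.20) with an adjusted p of 0.057 in edgeR and 0.0061 in DESeq2, and 0.372% of genes passed in edgeR. Tumor age differed along with the *Trp53* genotype, and age and genotype cannot be told apart. The change of the restoration effect with *Trp53* was -0.69 (SE 0.27, unadjusted p = 0.015, adjusted p = 1), in a test that 0.00% of 13706 genes passed and 422 (3.08%) entered at an unadjusted p under 0.05, with none called by DESeq2.

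Among the transcription factors, *Xbp1*, the target of IRE1, came closest to the *Herpud1* pattern. It was at 105, 196, 175 and 183 CPM in *KT*, 99.5 to 148 CPM (median 133) in non-restored and 127 to 195 CPM (median 144) in restored libraries. All 3 groups overlapped, and the low *KT* value again came from replicate 1. Non-restored minus *KT* was -0.35 (SE 0.14, adjusted p = 0.16), and -0.51 (adjusted p = 0.038) without *KT* replicate 1. Restored minus non-restored was 0.24 (SE 0.12, adjusted p = 0.36). *Atf4*, the effector of PERK, was at 92 to 151 CPM in *KT*, 76.2 to 208 in non-restored and 99.2 to 154 in restored libraries, with differences of 0.16 and -0.06 that did not pass (adjusted p = 0.73 and 0.92). *Atf6*, sensor and factor in one, was at 127 to 163 CPM in *KT*, 110 to 277 in non-restored and 104 to 151 in restored libraries, and the 277 CPM was that of replicate 8. Its differences were 0.07 and -0.25 (adjusted p = 0.87 and 0.49).

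The chaperone *Hspa5* and its helpers overlapped between all 3 *Trp53* wild-type groups. *Hspa5*, the central Hsp70 of the ER, was at 567, 764, 733 and 673 CPM in *KT*, 532 to 1419 CPM (median 670) in non-restored and 513 to 988 CPM (median 719) in restored libraries. Non-restored replicates 4 and 5 stood high, at 1419 and 1086 CPM. The 95% intervals of its differences were -0.26 to 0.61 for non-restored minus *KT* and -0.41 to 0.30 for restored minus non-restored. *Hsp90b1*, the ER member of the Hsp90 family, was at 1409 to 1818 CPM in *KT*, 1069 to 2089 in non-restored and 1323 to 1751 in restored libraries. Its differences were -0.19 (SE 0.16) and 0.08 (SE 0.13), with adjusted p of 0.54 and 0.83. *Hsp90b1* shares 4598 bases with the opposite-strand *1810014B01Rik*, which leaves its counts uncertain.

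*Dnajb9* (ERdj4), a J-domain partner of BiP, gave the next smallest p after *Herpud1* in the restoration comparison. It was at 127, 359, 283 and 157 CPM in *KT*, 150 to 292 CPM (median 199) in non-restored and 255 to 325 CPM (median 282) in restored libraries. Restored values lay in a narrow band, and 2 non-restored libraries, at 265 and 292 CPM, reached into it. The difference was 0.46 (SE 0.17, unadjusted p = 0.012, adjusted p = 0.18). In *KT* the 2 female libraries had 359 and 283 CPM and the 2 male ones 127 and 157 CPM, and against these values non-restored tumors differed by -0.17 (adjusted p = 0.68).

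*Sdf2l1*, a component of the BiP chaperone cycle, had the largest relative spread of the 10 genes in non-restored and in restored *Trp53* wild-type tumors. It was at 5.51 to 10.7 CPM in *KT*, 3.63 to 30.5 in non-restored and 1.15 to 23.5 in restored libraries, and its SD was 73.5% of the mean in non-restored and 77.1% in restored tumors. Its difference of non-restored minus *KT* had a 95% interval of -0.70 to 1.59. *Creld2*, an ER-stress-induced disulfide isomerase, was at 13.1 to 26.6 CPM in *KT*, 10.1 to 28.4 in non-restored and 6.85 to 21.5 in restored libraries, with differences of -0.15 (adjusted p = 0.8) and -0.25 (adjusted p = 0.66). Between restored and *KT* tumors, where 0.459% of genes passed, none of the 9 genes other than *Fkbp11* passed or had an unadjusted p under 0.05 in edgeR, and DESeq2 called 0 of them.

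**Figure D2:**
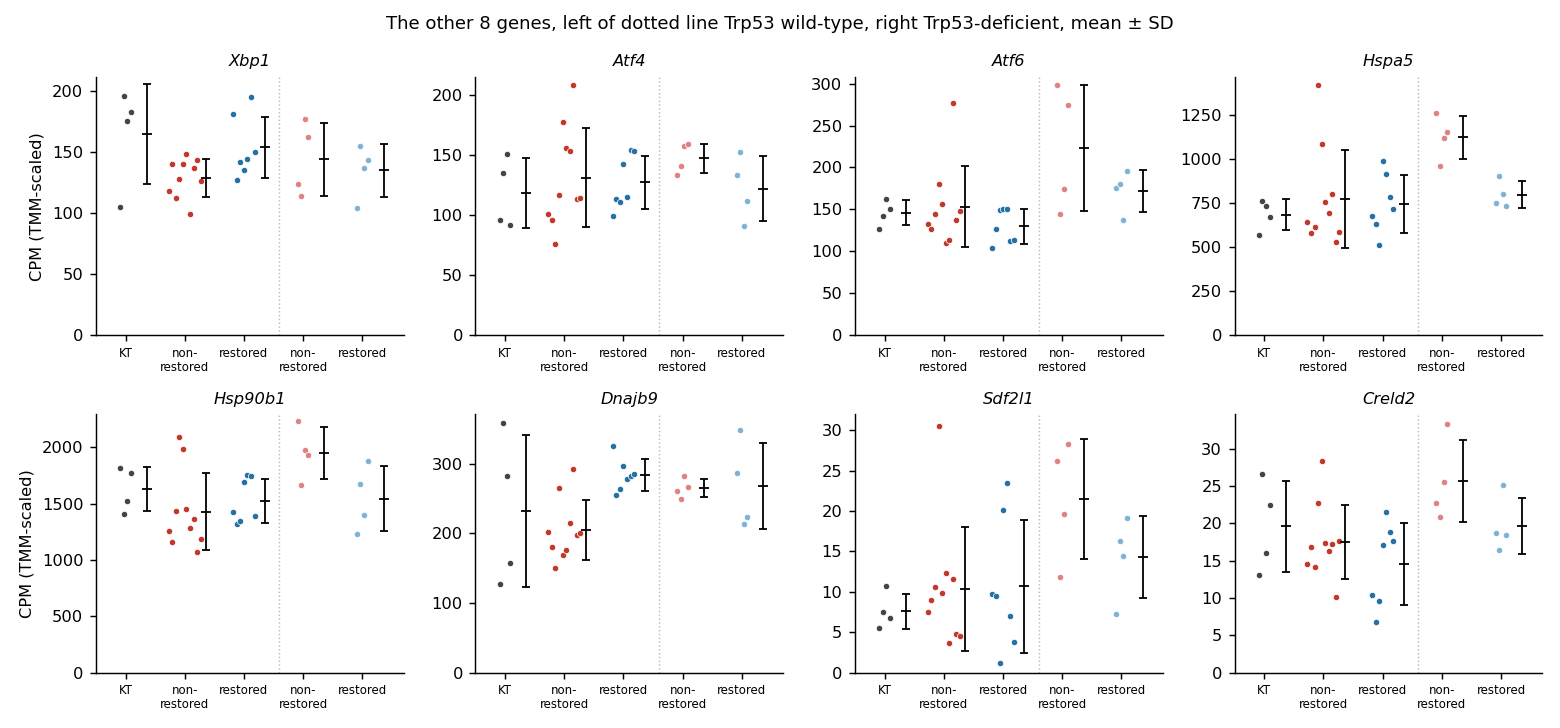
TMM-scaled CPM of the 8 genes other than *Fkbp11* and *Herpud1* in each library or animal, with mean and SD, for *KT*, non-restored and restored *Trp53* wild-type tumors (left of the dotted line) and non-restored and restored *Trp53*-deficient tumors (right). The groups overlap for each gene among *Trp53* wild-type tumors. In *Trp53*-deficient tumors *Hspa5* was at 733 to 905 CPM in restored and 962 to 1259 CPM in non-restored units, a difference that did not pass.

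Within *Trp53*-deficient tumors, none of the 10 genes passed between restored and non-restored animals, and 0 of all 12516 genes tested did. *Hspa5* was at 1259, 962, 1122 and 1151 CPM in non-restored and at 751, 905, 804 and 733 CPM in restored tumors. Single libraries of animal 1 ranged from 974 to 1440 CPM. The *Hspa5* difference was -0.47 (SE 0.15, unadjusted edgeR p = 0.0096, adjusted p = 0.8), and 5.98% of all genes had an unadjusted p under 0.05. *Hsp90b1* (-0.31), *Sdf2l1* (-0.56), *Creld2* (-0.35), *Atf6* (-0.34) and *Atf4* (-0.24) had values in the same direction with adjusted p of 0.8 or 0.81. Over the 9 genes the median difference was -0.31, against 0.02 over all genes tested.

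Of the 9 genes other than *Fkbp11*, 6 had an unadjusted p under 0.05 between the *Trp53* backgrounds of non-restored tumors, all higher with *Trp53* deleted, a cut that 17.7% of all genes met. Relative to *Trp53* wild-type non-restored tumors, *Trp53*-deficient ones had log2 differences of 0.55 for *Atf6*, 0.55 for *Hspa5*, 0.45 for *Hsp90b1*, 0.38 for *Dnajb9*, 1.04 for *Sdf2l1* and 0.55 for *Creld2*, and none passed (adjusted p from 0.15 to 0.28). *Xbp1* (0.16), *Atf4* (0.17) and *Herpud1* (-0.16) had larger p. The median over the 9 genes was 0.45, against -0.02 over all 13706 genes, of which 0.584% passed. Without non-restored replicate 8 the adjusted p was 0.013 for *Atf6* (0.67) and 0.03 for *Dnajb9* (0.44), and without replicate 4 it was 0.032 for *Hspa5* (0.69). Without *Trp53*-deficient animal 4 none passed. ATII markers moved with this comparison, at 5902 to 71801 CPM in *Trp53* wild-type and 8212 to 35738 CPM in *Trp53*-deficient non-restored units, and their part in it was not tested. Among restored tumors the median of the 9 genes was 0.02 and none passed. Tumor age differed with the *Trp53* genotype here as well, and age and genotype cannot be told apart.

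**Figure D3:**
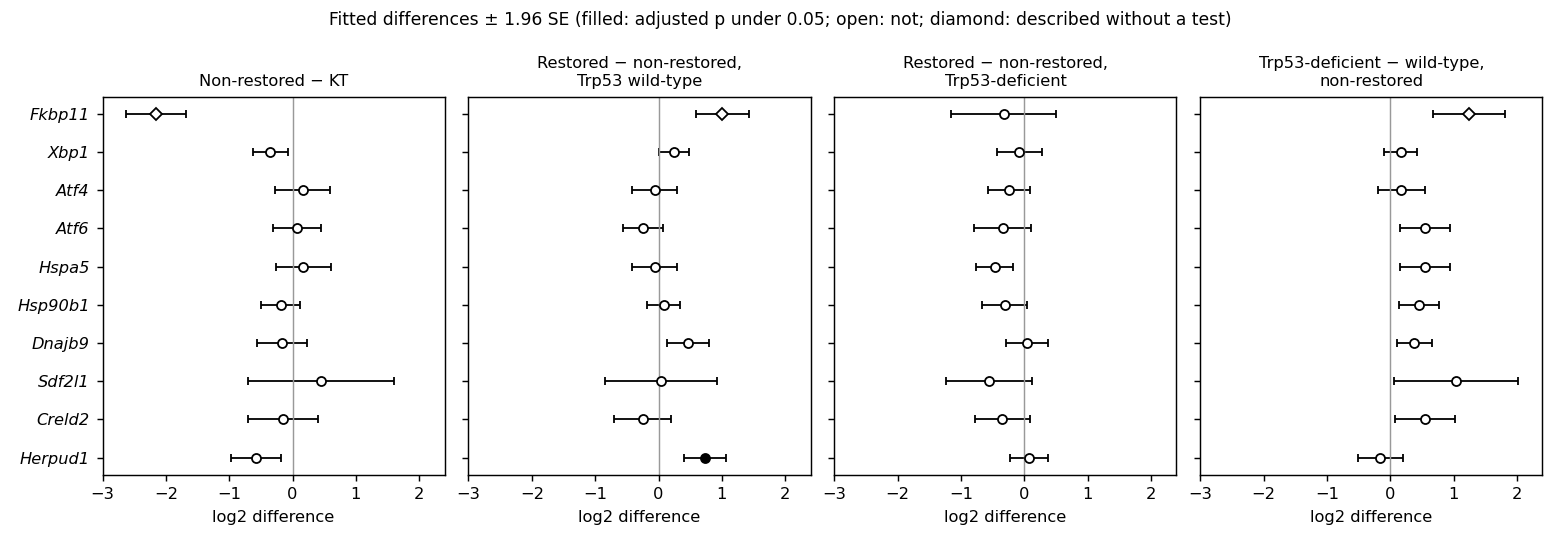
Fitted log2 differences of the 10 genes in 4 comparisons, with 95% intervals as bars. *Fkbp11* had -2.16 for non-restored minus *KT* and 1.01 for restored minus non-restored (diamonds, described without a test), while the only filled point, past an adjusted p of 0.05, is *Herpud1* at 0.73.

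The wider machinery was read from 134 ER and unfolded protein response genes besides *Fkbp11*, in 7 lists of sensors, chaperones, disulfide isomerases, prolyl isomerases, degradation factors, translocon and glycosylation enzymes, and ATF4 targets. Of 129 tested between non-restored and *KT* tumors, 4 passed, all lower without *Lkb1*. This is 3.1%, below the 5.86% of all genes, and the median difference of the 129 was 0.02 against 0.03 over all genes. *Fkbp14*, a collagen-directed prolyl isomerase of the ER, fell by 1.16 on the log2 scale (adjusted p = 0.019). *Creld1*, the relative of *Creld2*, fell by 0.86 (adjusted p = 0.037), the disulfide isomerase *Txndc5* by 0.64 (adjusted p = 0.0062) and *Sel1l*, the adaptor of the HRD1 ubiquitin ligase, by 0.63 (adjusted p = 0.013). On the TPM scale, where the median of all genes shifts to 0.15, limma called 9 genes of which 8 were higher, and over all genes 673 of 947 calls were higher against 301 of 741 in edgeR. Without *KT* replicate 3 edgeR called 1 of these genes.

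*Fkbp11* stood apart from the other prolyl isomerases of the ER in the size of its difference, which the choice of the gene itself favours. *Fkbp14* averaged 17.4 ± 5.57 CPM (SD, n = 4) in *KT*, 7.79 ± 3.02 (n = 10) in non-restored and 11.9 ± 2.9 (n = 7) in restored tumors. *Fkbp9* averaged 81.7 ± 16.4, 51.6 ± 14.1 and 60.9 ± 14.1 CPM, with -0.67 (adjusted p = 0.064) for non-restored minus *KT*. *Fkbp14* and *Fkbp9* thus ran in the order *KT*, restored, non-restored that *Fkbp11* shows, without passing for restoration (0.61 with adjusted p = 0.24 and 0.24 with adjusted p = 0.58). *Fkbp2* (-0.20), *Fkbp7* (-0.71) and *Fkbp10* (0.30) did not pass against *KT* (adjusted p from 0.55 to 0.85), and *Fkbp7* and *Fkbp10* were below 10 CPM in every *Trp53* wild-type library. The cyclophilins *Ppib* (0.02) and *Ppic* (-0.18) did not pass either (adjusted p = 0.96 and 0.83). Outside the ER, *Fkbp4*, a cochaperone of cytosolic Hsp90, fell by 0.66 (adjusted p = 0.003), from 133 ± 6.41 CPM in *KT* to 83.7 ± 13.8 CPM in non-restored tumors, and was the only 1 of 6 tested FKBP genes there that passed.

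With restoration, 2 of 129 genes passed, both higher, which is 1.55% against 1.87% of all genes. They were *Herpud1* and *Pdia6*, a disulfide isomerase that binds BiP, which rose by 0.38 (SE 0.10, adjusted p = 0.036) from 162 ± 25.2 CPM (SD, n = 10) to 213 ± 21.6 CPM (n = 7). Without restored replicate 2 neither passed, and the count was 1 without restored replicate 1, 3, 5, 6 or 7 or non-restored replicate 1, 7 or 9. The median over the 129 genes was -0.02 against -0.01 over all genes. Of the 4 genes that fell relative to *KT*, none passed for restoration, and *Sel1l* was at 369 ± 55.6, 238 ± 34.3 and 293 ± 69.3 CPM in *KT*, non-restored and restored tumors. None of the 129 genes passed between restored and *KT* tumors in edgeR, where 7 (5.43%, against 10.5% of all genes) had an unadjusted p under 0.05 and DESeq2 called 1.

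The wider lists were also compared between *Trp53* backgrounds, where tumor age differed with the genotype, so that age and genotype cannot be told apart. In non-restored tumors, 103 of 133 genes had values above 0 with *Trp53* deleted, and their median was 0.27 against -0.02 over all genes. An unadjusted p under 0.05 was found for 48 (36.1%), 46 of them higher, against 2430 of 13706 genes (17.7%), 1217 of them higher. Only 3 passed (2.26%, against 0.584% of all genes). *Spcs3*, a subunit of signal peptidase, rose by 1.21 (adjusted p = 0.0038) from 136 ± 45.7 to 313 ± 58.4 CPM, and *Ssr3*, a translocon-associated protein, rose by 0.94 (adjusted p = 0.026) from 439 ± 129 to 840 ± 350 CPM. *Sesn2*, an ATF4 target that p53 also induces, fell by 1.35 (adjusted p = 0.035) from 22.6 ± 7.81 to 8.69 ± 2.02 CPM. All 21 genes of the translocon list were above 0, with a median of 0.39, and 15 (71.4%) had an unadjusted p under 0.05. Among 22 chaperones 17 were above 0, with a median of 0.29. Leaving out non-restored replicate 8 raised the count from 3 to 29 genes, 28 of them higher, while calls over all genes rose from 80 to 1448. The count was 11 without non-restored replicate 4 and 5 without *Trp53*-deficient animal 2, and it was 1 without *Trp53*-deficient animal 1 or 4 or without non-restored replicate 1 or 7.

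In restored tumors the same lists lay closer together. With *Trp53* deleted, 84 of 133 genes were above 0 with a median of 0.10, and 0 passed in edgeR and 2 in DESeq2. An unadjusted p under 0.05 was found for 23 (17.3%), near the 15.5% of all genes. Within *Trp53*-deficient tumors, restored minus non-restored values were below 0 for 88 of 132 genes with a median of -0.13, against 0.02 over all genes. None passed in either tool, and 7 (5.3%, against 5.98% of all genes), all lower, had an unadjusted p under 0.05. The difference of the restoration effect between the *Trp53* backgrounds was below 0 for 91 of 133 genes and passed for none, with 4 (3.01%, against 3.08% of all genes) at an unadjusted p under 0.05. Between the tamoxifen and vehicle arms of the non-restored group, 0 of 129 genes passed in edgeR or DESeq2, 6 (4.65%, against 4.61% of all genes) had an unadjusted p under 0.05 and the median was 0.05.

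**Figure D4:**
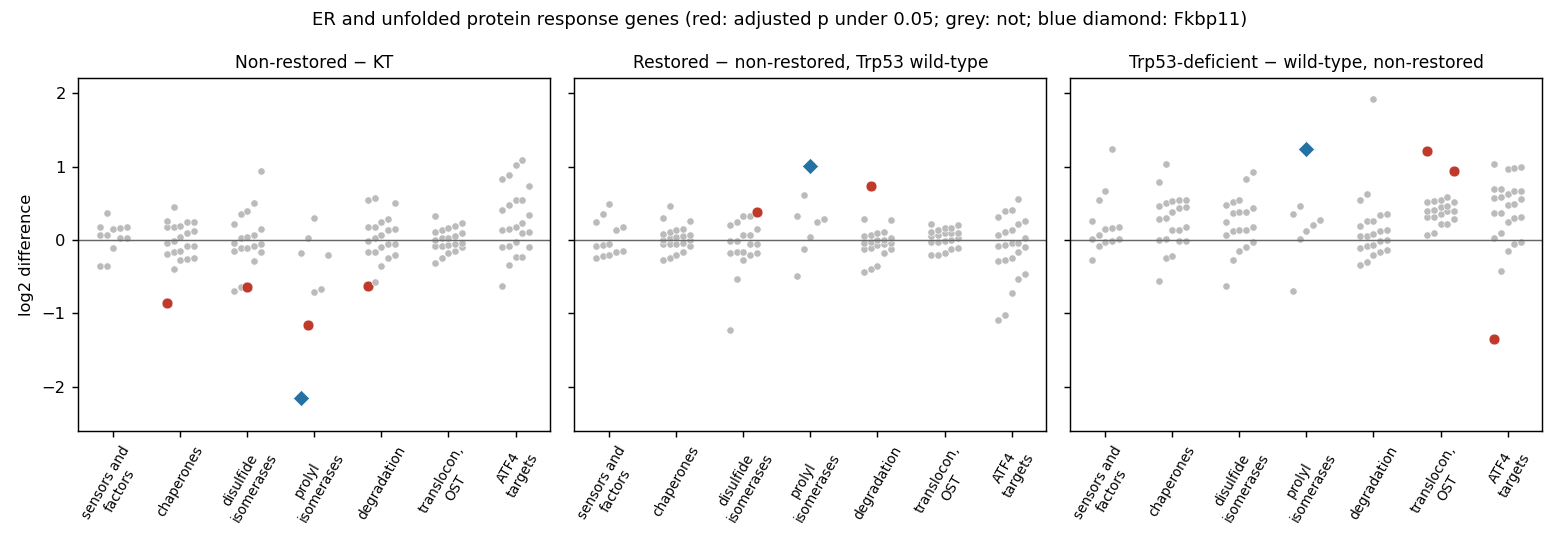
Fitted log2 differences of the genes of 7 lists of the ER and the unfolded protein response in 3 comparisons, one point a gene, red where the adjusted p was under 0.05 and grey where it was not, with *Fkbp11* as a blue diamond. The translocon list lies above 0 in the right panel (21 of 21 genes), and *Ern2*, whose 4 *KT* libraries were all at 0 counts, is not drawn in the left panel.

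After group means were subtracted, *Hspa5*, *Hsp90b1*, *Sdf2l1* and *Creld2* varied together from unit to unit. Pearson's r of log2 CPM over the 29 units was 0.75 between *Hspa5* and *Hsp90b1*, 0.72 between *Hspa5* and *Sdf2l1* and 0.67 between *Hspa5* and *Creld2*. Of these, *Hspa5*, *Hsp90b1* and *Creld2* are the genes whose promoters held ERSE, and *Sdf2l1* held neither element. *Dnajb9* stood outside this block, with -0.12 to *Hsp90b1*, 0.18 to *Creld2*, 0.19 to *Sdf2l1* and 0.38 to *Hspa5*, and reached 0.56 with *Atf4*. *Fkbp11* was not clearly apart from the block, with 0.55 to *Sdf2l1*, 0.54 to *Hspa5*, 0.38 to *Creld2* and 0.37 to *Hsp90b1*, and it had 0.37 to *Xbp1*. *Herpud1* was nearly unrelated to them, with r from -0.25 to 0.20. The units share library preparation and scaling, and some of the *Trp53* wild-type libraries may share a mouse, so 29 may overstate the independent units. The r with the log2 library total was -0.22 for *Fkbp11* and 0.12 for *Herpud1*. With the summed ATII level, *Herpud1* had r = 0.60, *Fkbp11* -0.49 and *Atf6* -0.69, and over the 27 units without non-restored replicate 8 and *Trp53*-deficient animal 4 these were 0.47, -0.34 and -0.33. *Hspa5* and *Sdf2l1* moved the other way, from -0.37 to -0.60 and from -0.44 to -0.66.

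**Figure D5:**
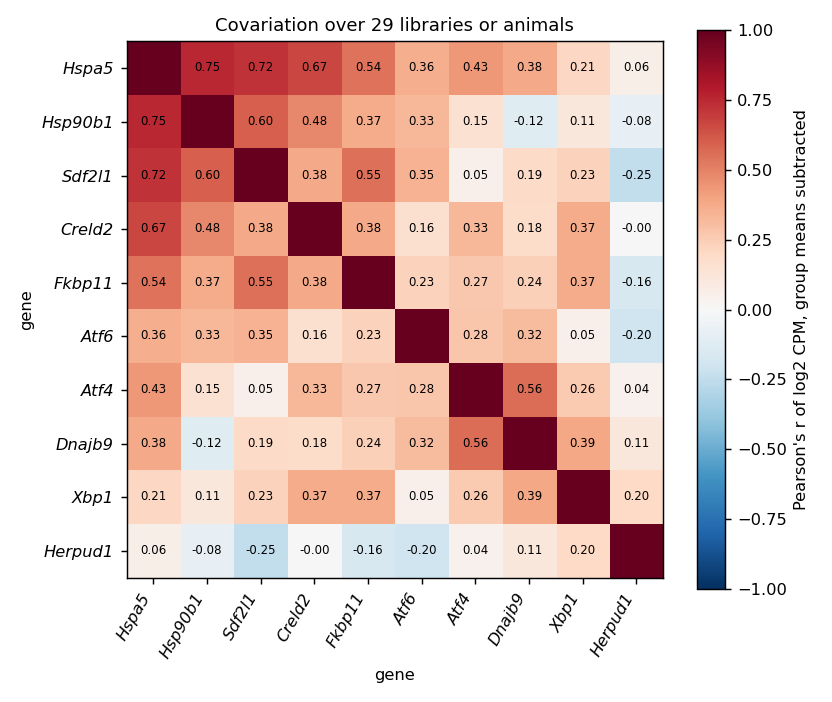
Pearson's r of log2 CPM between the 10 genes over 29 libraries or animals after subtraction of each group's mean. *Hspa5*, *Hsp90b1*, *Sdf2l1* and *Creld2* form the block of high values (0.38 to 0.75), and the row of *Herpud1* holds values from -0.25 to 0.20.

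The filter kept 13273 genes over the 29 units. Of those outside the lists, the genes most like *Fkbp11* after subtraction of group means were *Dqx1* (r = 0.76), *Krtcap2* (0.76), *Gm10177* (0.75), *Eif4e* (0.72) and *Med17* (0.71). *Krtcap2* is a subunit of the oligosaccharyltransferase complex, and *Eif4e* binds the mRNA cap. Before subtraction they were *Cyp1b1* (0.79), *8430408G22Rik* (0.77), *Gne* (0.77), *Pttg1* (0.75) and *Arhgap11a* (0.73). *Gne*, the first enzyme of sialic acid synthesis, averaged 61.4 ± 6.59 CPM in *KT*, 34.1 ± 6.84 in non-restored and 46.2 ± 10.7 in restored tumors, the order of *Fkbp11*. The second set includes the differences between groups that chose *Fkbp11*, and both sets were picked as the highest of many values.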

How the data were processed

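Sorted tumor cells gave 32 RNA-seq libraries. Per the labels and methods, the authors made them with a ribosomal RNA depletion kit, aligned paired-end reads to mm10 with STAR 2.6.1d and estimated abundance with RSEM 1.2.30. Expected counts per gene were deposited as RSEM estimated them, without normalization, and 5.57% of values were not whole. For the TPM values, also deposited, RSEM divides by effective length and by the library total. The deposited effective length, in bases, served 1 alternative. The authors' table of scaled counts and their DESeq2 1.26.0 tables of log2 fold changes and p-values were not used. Totals of 1302482 to 5943951 counts leave *Fkbp11* with 6 to 84 counts in *Trp53* wild-type libraries.

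Expected counts were rounded, filtered with filterByExpr, scaled by TMM and tested with edgeR 4.0.16 (quasi-likelihood F test, robust, R 4.3.3), with Benjamini-Hochberg adjustment over all genes and a threshold of 0.05. One fit held the 21 *Trp53* wild-type libraries, one the 8 *Trp53*-deficient units and one 25 units of both backgrounds. Libraries of one animal were summed where the titles name it. Intervals of 95% rest on the normal approximation. Alternatives were DESeq2 1.42.0, its size factors, no filter, length offsets, limma 3.58.1 on log2(TPM + 1), sex, arms, replicate numbers and leaving out each library. The scripts were tested on simulated data. No pair of libraries was a duplicate (highest correlation 0.979). Correlations used log2 CPM with a prior count of 2, and leaving out the 2 units low in ATII markers was an alternative chosen after seeing the data. Coordinates are from GENCODE M21 (GRCm38).

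Named were the 10 genes, *Stk11* and *Trp53*, the ER prolyl isomerases, up to 3 called genes per list with the smallest adjusted p in each comparison, and the 5 genes most like *Fkbp11* by each measure. Marker genes, overlapping genes, *Dnajb11*, *Ern2* and *Muc5b* are named beside the results they touch. *Dnajb11*, *Ern2* and *Muc5b* were named after their values were seen. The 10 genes and the lists were chosen with earlier results of these data known. One allele that all the mice share is not reported here.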

Additional observations from a re-analysis of the deposited data

Results flagged for a closer look

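The 10 genes were searched in 5 groups each for a library far from the others, and 2 of 50 gene-group sets held one, where chance flags about 1 in 20. *Atf6* was at 277 CPM in non-restored replicate 8, and the next highest of the 10 libraries was at 180 CPM, a gap of 0.580 of the whole range. This library also had 5902 CPM of ATII markers, the lowest of the group, and 6465 CPM of *Muc5b*. *Sdf2l1* was at 30.5 CPM in non-restored replicate 4 against 12.3 CPM in the next library, a gap of 0.675 of the range. Replicate 4 had the highest *Hspa5* (1419 CPM), *Hsp90b1* (2089 CPM) and *Fkbp11* (10.4 CPM) of the group as well, and its *Muc5b* was at 1383 CPM. The part of these markers in the 2 values was not tested.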

How the results depend on the processing

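No called value of the 10 genes changed sign under any alternative run. A value counted as kept if its direction and side of the threshold stayed. Where *Fkbp11* was not tested, its value counted as kept if its direction stayed and it moved by less than 0.52 (log2). Of 1600 gene-level values recomputed, 1513 were kept, 72 that were never called changed sign, 9 passed where the reported value did not and 6 no longer passed. The last 6 were all *Herpud1* on restoration, called in 21 of 27 alternatives with differences from 0.63 to 0.85, and not with limma on TPM (adjusted p = 0.065) or the replicate block (0.081), nor in the 4 fits on fewer libraries named in the report. *Fkbp11* kept its direction in all of 24 alternatives against *KT* (-2.28 to -1.96) and 27 for restoration (0.88 to 1.13). The difference from *KT* chose the gene and the other shares its non-restored libraries, so neither count is support. ER and unfolded protein response genes called between non-restored and *KT* tumors were 4, and 1 to 6 with a library left out, 0 in females alone, 0 against the tamoxifen arm alone and 9 with limma on TPM. For restoration they were 2, and 0 to 3 with a library left out, 1 without a filter, 1 in females, 1 with the vehicle arm, 1 with limma and 0 with the tamoxifen arm. For restored against *KT* tumors they were 0, and 1 with DESeq2. With *Trp53* deleted against intact they were 3 in non-restored tumors, 8 with DESeq2 and 1 to 29 with a unit left out, and 0 in restored tumors, 2 with DESeq2, 1 with length offsets and 0 to 1 with a library left out. Apart from the fits on fewer libraries, the cause was not tested. Same-numbered replicates deviated together with correlations of -0.029 to 0.129 (non-restored and *KT*), 0.048 to 0.5 (restored and non-restored) and -0.054 to 0.083 (restored and *KT*), so the numbers were not taken as pairs. With the replicate block these genes called were 5, 0 and 1 in the 3 comparisons. All genes called numbered 741 between non-restored and *KT* tumors (132 to 1092 over the alternatives), 236 for restoration (50 to 471) and 80 for *Trp53* in non-restored tumors (26 to 1448). Depth limits *Fkbp11* and *Sdf2l1* most, which had the lowest mean CPM of the 10 genes in non-restored tumors (6.41 and 10.4).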

Other observations

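*Ern2* encodes IRE1β, the form of the IRE1 sensor found in mucin-producing epithelium. It was present in some libraries and absent from others, and it was singled out after its values were seen. It had 0 counts in all 4 *KT* libraries, where 3 counts would equal at most 2.303 CPM before scaling by TMM. It was above 3 counts in 5 of 10 non-restored, 2 of 7 restored and all 8 *Trp53*-deficient units. In non-restored tumors it was at 33.8 CPM in replicate 8, 11.2 in replicate 4, 7.22 in replicate 5 and at most 1.59 CPM in the others. In restored tumors it was at 17.6 CPM in replicate 4, 15.6 in replicate 5 and at most 0.383 CPM in the others. It lay between 7.44 and 27.4 CPM in the *Trp53*-deficient units. None of the 8 comparisons called it (adjusted p from 0.27 to 1). Among *Trp53* wild-type tumors the same libraries had the highest *Muc5b*: 6465, 1383 and 250 CPM in those 3 non-restored libraries against 1.59 to 129 CPM in the others, and 1043 and 1229 CPM in those 2 restored libraries against 1.56 to 10.7 CPM. *Trp53*-deficient units did not follow this closely: restored replicate 4 had *Ern2* at 10 CPM with *Muc5b* at 31 CPM, below the 52.7 CPM of *KT* replicate 4, which had no *Ern2* count.

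*Hspa5* was the highest of its group in these libraries, and *Sdf2l1* was so in some of them. In non-restored replicates 8, 4 and 5, *Hspa5* was at 799, 1419 and 1086 CPM against 532 to 755 CPM in the others, whereas *Sdf2l1* was at 11.6, 30.5 and 9.8 CPM against 3.63 to 12.3 CPM, so that only replicate 4 stood above them. *Hspa5* was at 988 and 917 CPM in restored replicates 4 and 5, against 513 to 782 CPM in the other restored libraries, and *Sdf2l1* at 20.1 and 23.5 CPM against 1.15 to 9.79 CPM. The 3 highest *Fkbp11* values of the non-restored group, 10.4, 8.44 and 8.25 CPM, belonged to the 3 libraries with the most *Ern2*, but in the restored group replicates 4 and 5 were at 13.1 and 12.2 CPM, below the median. Over the 29 units with group means subtracted, r with *Ern2* was 0.88 for *Muc5b*, 0.73 for *Hspa5*, 0.61 for *Atf6*, 0.58 for *Sdf2l1*, 0.39 for *Fkbp11*, -0.17 for *Herpud1* and -0.69 for *Sftpc*. Without non-restored replicate 8 and *Trp53*-deficient non-restored animal 4, left out after the values were seen, these were 0.85, 0.80, 0.43, 0.61, 0.31, 0.08 and -0.70. These are descriptions over units that share library preparation, and some of the *Trp53* wild-type libraries may share a mouse.

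Among cytosolic and mitochondrial chaperones, 3 of 18 (16.7%, against 5.86% of all genes) passed between non-restored and *KT* tumors. The mitochondrial *Trap1* fell by 0.65 on the log2 scale (adjusted p = 0.0048) and *Hspe1* by 0.77 (adjusted p = 0.017), and the cytosolic *Hspa4* rose by 0.39 (adjusted p = 0.03). Their list had a median of -0.36, against 0.03 over all genes.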
